A study of Mus musculus with 14 samples.

Results

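The genes described are 10 that supply cysteine by transsulfuration, build and recycle glutathione, or hold back ferroptosis. They are *Cth*, *Cbs*, *Gclc*, *Gclm*, *Gss*, *Gsr*, *Gpx1*, *Gpx4*, *Txnrd1* and *Aifm2*. They were chosen by symbol, and all 10 were found among the 55291 symbols that both deposited tables share. RNA sequencing gave their mRNA levels in 14 libraries of 2 experiments on mouse cells.

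In the first experiment, 4 ND-646 and 4 vehicle libraries were made from spleen cells of OT-1 mice. The CD8+ T cells of these mice bear a transgenic receptor that sees an ovalbumin peptide. Genotype is given as WT in every group. Whole splenocytes were stimulated with 1 µg/mL of that peptide and 200 U/mL human interleukin-2, activated over 3 days and then expanded over 4 days. The ND-646 cultures also received 100 nM of this inhibitor of acetyl-CoA carboxylase, and the vehicle cultures DMSO. Both are labelled CD8+ T cells, and no sort is described for them. In the second experiment, 3 tumour and 3 spleen libraries were made from sorted CD8+ cells of C57BL/6 mice. These mice had carried subcutaneous MCA-205 fibrosarcomas for 14 days, and, as the protocol reads, the spleens came from tumour-bearing animals too. CD8+ cells were enriched with a kit and then sorted by flow cytometry. The tumour samples are described as pooled, and what was pooled, the ages and the sexes are not given. Nothing in the labels says that the libraries of a group came from separate animals or cultures, and all p-values below rest on the spread among libraries, part of which may be technical.

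Cysteine limits the making of glutathione. Cells import it, mostly as cystine, or make it from homocysteine through cystathionine, by the enzymes encoded by *Cbs* and *Cth*. Glutamate-cysteine ligase, with a catalytic subunit from *Gclc* and a modifier subunit from *Gclm*, and glutathione synthetase from *Gss* then assemble glutathione, which *Gsr* regenerates after oxidation. *Gpx1* and *Gpx4* encode selenoenzymes that use it to reduce hydrogen peroxide and membrane lipid peroxides. Loss of Gpx4 leads to ferroptosis, an iron-dependent death by lipid peroxidation, and T cells of mice that lack it expand poorly. *Txnrd1*, another selenoprotein gene, encodes the cytosolic thioredoxin reductase, and *Aifm2* encodes FSP1, which keeps coenzyme Q reduced in membranes and slows ferroptosis by a route of its own.

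Depth was similar within each experiment, while the levels of cell type markers differed strongly between tumour and spleen libraries. Totals ran from 27.9 to 33.8 M counts (M, 1e+06) in ND-646, 23.5 to 29 M in vehicle, 19.6 to 21 M in tumour and 19.8 to 20.8 M in spleen libraries. The 17 genes of a CD8 T cell identity list all had counts in every group. Their summed level was 7178 to 7423 CPM (counts per 1e+06 TMM-scaled counts) in ND-646 and 7089 to 7424 CPM in vehicle libraries, and 4658 to 6261 CPM in tumour and 10220 to 10291 CPM in spleen libraries. The list of 23 fibroblast and fibrosarcoma markers, without *Vim*, which T cells also express, summed to 12611, 18161 and 16088 CPM in tumour replicates 1 to 3. In spleen replicates 1 to 3 it summed to 22.1, 7.58 and 5.62 CPM. No marker of that list was at 0 in the tumour libraries, and 1 was at 0 in spleen. In bulk RNA, fewer cells of a type and less RNA per cell cannot be told apart.

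The low-count filter kept 9 of the 10 genes in each comparison and removed *Cbs*. *Cth* and *Aifm2* passed it in the second comparison through the tumour libraries. Levels of different genes are compared here per kilobase of the principal GENCODE transcript. *Gpx4* was the most abundant of the 10 in ND-646 (212 ± 9.36 CPM per kb), vehicle (190 ± 2.64) and tumour libraries (169 ± 4.51), where *Gpx1* was next at 98.1 ± 2.91, 123 ± 2.91 and 155 ± 9.42 CPM per kb (SD, n = 4, 4 and 3). In spleen *Gpx1* came first, at 112 ± 4.71 against 89.9 ± 3.22 CPM per kb for *Gpx4* (SD, n = 3). *Txnrd1* ranked 3 in every group. The transsulfuration genes were near the bottom, with *Cbs* under 0.05 CPM per kb in all 4 groups, but *Cth* ranked 6 of 10 in ND-646 libraries at 13.1 ± 2.05 CPM per kb, level with *Gclc* at 12.9 ± 0.727 (SD, n = 4 each).

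**Figure D1:**
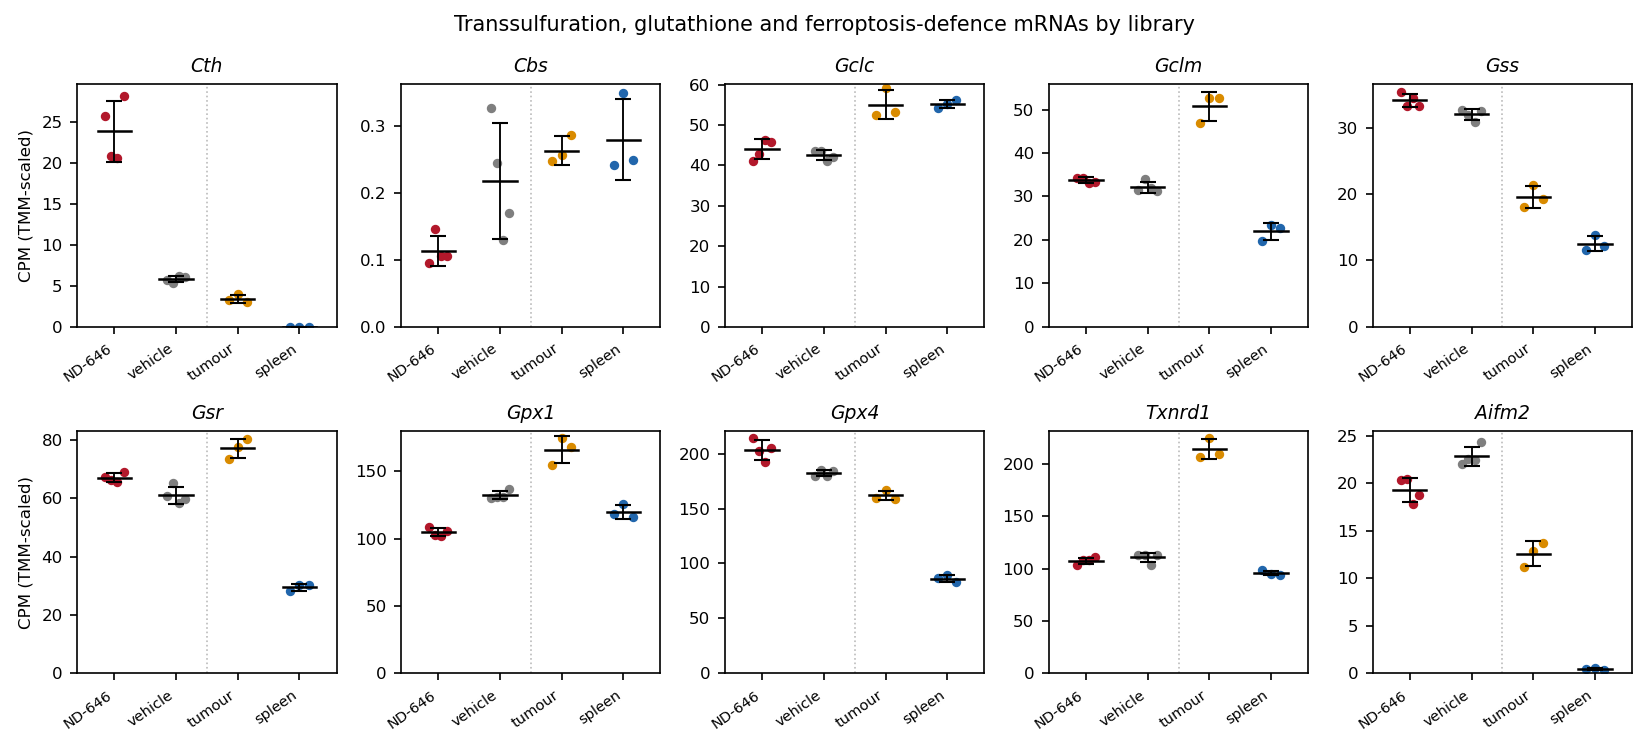
Each panel gives 1 of the 10 genes, with TMM-scaled CPM per library (points) by group, and the group mean (line) with SD (bars). The dotted line divides the 2 experiments, which were scaled apart. *Cth* lies at 20.6 to 28.1 CPM in ND-646 and 5.32 to 6.18 CPM in vehicle libraries, and all 3 spleen libraries are at 0.

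The first comparison asked what inhibition of acetyl-CoA carboxylase did to these transcripts in activated cultures. *Cth*, the last step of transsulfuration, was 4.1-fold higher with ND-646, while the other tested genes moved by at most 1.26-fold either way. *Gsr* and *Gpx4* rose slightly, *Gpx1* and *Aifm2* fell, and the glutathione synthesis genes *Gclc*, *Gclm* and *Gss* did not pass the test. Of 9 tested genes, 3 rose and 2 fell at an edgeR adjusted p of 0.05, while 29.8% of all 14251 tested genes rose and 26.5% fell, 56.3% in all. The share among these genes is near that background.

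*Cth* stood at 25.7, 20.8, 20.6 and 28.1 CPM in ND-646 replicates 1 to 4, against 5.69, 5.32, 6.18 and 6.05 CPM in vehicle replicates 1 to 4. The groups lay far apart, and among ND-646 libraries replicates 1 and 4 were above 2 and 3. The log2 fold change was 2.04 ± 0.11 (SE; edgeR adjusted p = 5.71e-10). Across all genes the same ND-646 libraries paired off, 1 with 4 (chi-square per degree of freedom 5.33) and 2 with 3 (3.82), against 7.83 to 12.1 for the other pairs. The labels name no batch for this, and its part in the level of *Cth* was not tested. Without any 1 library the log2 fold change of *Cth* stayed between 1.94 and 2.10.

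*Cbs*, the first step of the same route, was at 3 to 5 counts per ND-646 library (0.0954 to 0.146 CPM) and 3 to 8 counts per vehicle library (0.129 to 0.327 CPM). The groups overlapped, and counts this low sit near the floor of 3 counts, 0.0887 to 0.128 CPM. A difference in *Cbs* was not detectable at this depth (edgeR adjusted p = 0.255 with no low-count filter).

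Neither ligase subunit passed the test. *Gclc* was at 41, 42.9, 46.3 and 45.7 CPM in ND-646 replicates 1 to 4, against 43.5, 43.5, 41 and 42 CPM in vehicle replicates 1 to 4, with overlap and a log2 fold change of 0.05 ± 0.05 (SE; adjusted p = 0.411). *Gclm* was at 33 to 34.3 CPM in ND-646 and 31.2 to 34 CPM in vehicle libraries (log2 fold change 0.07 ± 0.05, adjusted p = 0.228). *Gss* did not overlap between groups, at 33.3 to 35.3 CPM with ND-646 and 30.9 to 32.7 CPM with vehicle, but a log2 difference of 0.09 ± 0.05 did not pass (adjusted p = 0.103). Among all tested genes 51.1% had groups that did not overlap, and among these 9 it was 6.

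*Gsr*, glutathione reductase, averaged 67 ± 1.5 CPM in ND-646 and 61 ± 2.84 CPM in vehicle libraries (SD, n = 4 each; log2 fold change 0.13 ± 0.04 SE; edgeR adjusted p = 0.0105). That call was lost by a narrow margin without ND-646 replicate 4 (log2 fold change 0.11, adjusted p = 0.0502). *Txnrd1* was at 104 to 111 CPM with ND-646 and 104 to 113 CPM with vehicle, with full overlap (-0.04 ± 0.04, adjusted p = 0.418).

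The glutathione peroxidases moved in opposite directions. *Gpx4*, the membrane lipid peroxidase, was at 192 to 214 CPM in the 4 ND-646 libraries (median 203), against 180 to 185 CPM in the 4 vehicle libraries (median 182; log2 fold change 0.15 ± 0.04 SE; edgeR adjusted p = 0.00192). *Gpx1* was at 109, 103, 102 and 106 CPM in ND-646 replicates 1 to 4, against 130, 131, 131 and 137 CPM in vehicle replicates 1 to 4 (-0.33 ± 0.04, adjusted p = 4.46e-07). Every ND-646 library was above every vehicle library for *Gpx4* and below it for *Gpx1*. Their count ratio, which needs no scaling between libraries, was 1.93 ± 0.0371 with ND-646 and 1.38 ± 0.0268 with vehicle (SD, n = 4 each; two-sided exact permutation p = 0.0286, the smallest possible, or 0.114 adjusted over 4 ratio tests). The Gclc to Gclm ratio was 1.31 ± 0.0987 and 1.32 ± 0.0513 in those groups (SD, n = 4 each; exact permutation p = 0.743). The pseudogene *Gpx4-ps2* held 3.32 to 3.62% as many counts as *Gpx4* in ND-646 and 2.72 to 3.88% in vehicle libraries (its part in the levels was not tested).

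*Aifm2* was lower with the inhibitor, at 20.3, 20.4, 17.8 and 18.8 CPM in ND-646 replicates 1 to 4, against 22, 22.6, 22.4 and 24.3 CPM in vehicle replicates 1 to 4. The groups did not overlap, and the log2 fold change was -0.24 ± 0.06 (SE; edgeR adjusted p = 0.00289). In these libraries macrophage, monocyte and neutrophil markers summed to 10.5 to 13.3 CPM with ND-646 and 24.8 to 28.9 CPM with vehicle, with 4 of 5 tested markers lower. The most abundant of them, *Cd68*, stood at 4.41 ± 0.494 CPM with ND-646 and 13.6 ± 1.42 CPM with vehicle (SD, n = 4 each). *C1qc*, *S100a8*, *S100a9* and *Csf3r* were at 0 counts in both groups. Endothelial markers summed to 28.9 to 32.5 CPM with ND-646 and 42.3 to 48 CPM with vehicle. Most of that sum was *Pecam1* (26.7 ± 1.47 and 37.5 ± 3.2 CPM; SD, n = 4 each), and *Cdh5*, *Tie1* and *Emcn* were at 0 counts in both groups. B cell markers, mostly *Ighm*, summed to 148 to 173 CPM with ND-646 and 115 to 131 CPM with vehicle, though 5 of 6 tested B cell markers were lower. The part of other cell types in the changes of *Gpx1* and *Aifm2* was not tested.

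**Figure D2:**
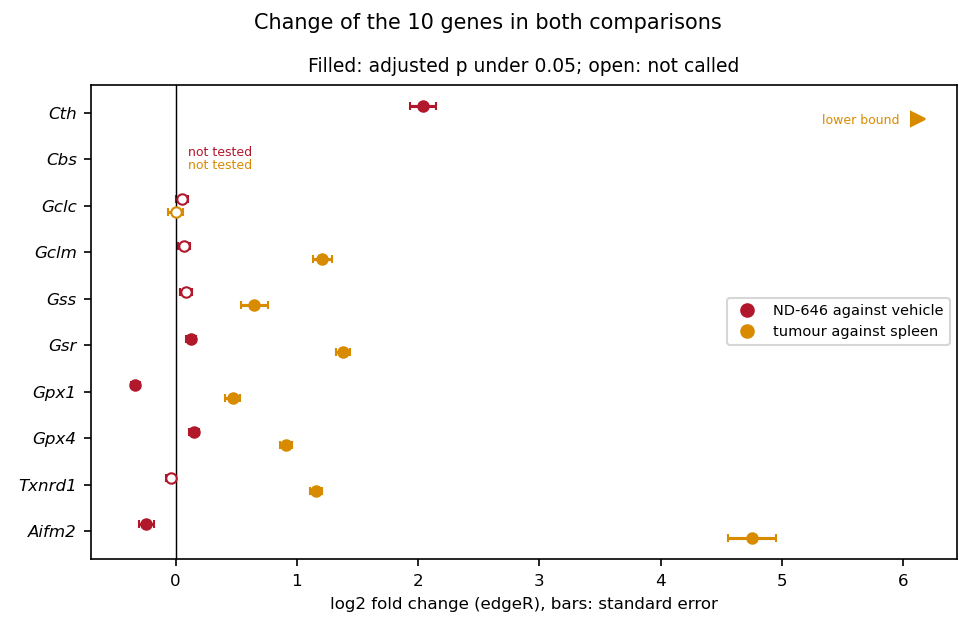
Log2 fold changes from edgeR for the 10 genes, ND-646 over vehicle (red) and tumour over spleen (orange), with standard errors. Filled points passed an adjusted p of 0.05, *Cbs* was not tested, and the orange triangle marks the lower bound of 6.12 for *Cth*, which had no count in spleen. Apart from *Cth*, the tested genes lie within -0.33 and 0.15 with ND-646.

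Of the neighbouring genes of cysteine supply, *Slc7a11*, the cystine-glutamate exchanger, was scarce but 7.38-fold higher with ND-646, at 2.26, 2.16, 1.76 and 2.93 CPM in ND-646 replicates 1 to 4, against 0.45, 0.315, 0.258 and 0.213 CPM in vehicle replicates 1 to 4 (log2 fold change 2.86 ± 0.26 SE; edgeR adjusted p = 3.4e-08). It passed the low-count filter through the ND-646 libraries. *Slc1a4*, a neutral amino acid carrier, also rose, to 56.3 ± 2.3 CPM with ND-646, against 32.2 ± 0.569 CPM with vehicle (SD, n = 4 each). *Chac1*, which degrades glutathione, averaged 27.2 ± 1.14 and 23.8 ± 2.54 CPM in those groups and passed narrowly (adjusted p = 0.0226). That call was lost without vehicle replicate 1 or 3 or without ND-646 replicate 1 or 4 (adjusted p = 0.0622 to 0.0936). Of 27 tested genes of cysteine supply and the methionine cycle, 8 rose and 8 fell (median log2 fold change -0.03, against 0.01 for all tested genes). That is 29.6% each way, near the 29.8% and 26.5% of all tested genes. *Ahcyl2*, a relative of adenosylhomocysteinase, rose by 0.47 ± 0.04 on the log2 scale (SE). *Suox*, sulfite oxidase, was among those that fell, at 34.9 ± 1.03 CPM with ND-646 and 49.8 ± 2.66 CPM with vehicle (SD, n = 4 each).

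*Nfe2l2*, which encodes NRF2, the transcription factor that drives *Gclm*, *Txnrd1* and *Slc7a11* under oxidative stress, rose to 58.2 ± 3 CPM with ND-646, against 28.9 ± 1.77 CPM with vehicle (SD, n = 4 each; log2 fold change 1.01 ± 0.05 SE; edgeR adjusted p = 1.85e-11). *Keap1*, its inhibitor, was at 106 ± 0.796 and 99.4 ± 3.51 CPM in those groups (adjusted p = 0.0346). That call was lost without vehicle replicate 1 or 2, or any ND-646 replicate (adjusted p = 0.0671 to 0.128), and under 5 other settings. Of 20 genes of the NRF2 pathway, 9 rose and 6 fell (45% and 30%, against 29.8% and 26.5% of all tested genes). *Ephx1*, an epoxide hydrolase, rose by 0.86 ± 0.07 and *Osgin1* changed by -0.95 ± 0.06 on the log2 scale (SE).

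The lists of enzymes that use glutathione or thioredoxin moved both ways. Among all tested genes 29.8% rose and 26.5% fell, the background for the list counts here. Of 24 glutathione-using enzymes, 10 rose and 9 fell, among them the exporter *Abcc1* (0.42 ± 0.04 on the log2 scale), the transferase *Gstt2* (0.34 ± 0.04) and glutaredoxin *Glrx* (-0.47 ± 0.04). Of 20 thioredoxin and peroxiredoxin genes, 6 rose and 6 fell. The peroxiredoxins *Prdx1* and *Prdx5* were at 123 ± 5.93 and 98.6 ± 5.28 CPM with ND-646, against 173 ± 7.38 and 148 ± 9.45 CPM with vehicle (SD, n = 4 each), while *Sesn2*, a stress-induced sestrin, rose by 0.43 ± 0.05 on the log2 scale. Of 10 superoxide and peroxide enzymes, 3 rose and 4 fell. *Sod1*, cytosolic superoxide dismutase, rose by 0.32 ± 0.04, and *Ncf1* and *Ncf4*, NADPH oxidase subunits, changed by -1.06 ± 0.07 and -0.47 ± 0.05 (SE).

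In the list of the lipid and quinone side of ferroptosis, which includes coenzyme Q genes, 12 of 24 genes rose and 5 fell. That is 50% and 20.8%, against 29.8% and 26.5% of all tested genes. *Acsl4*, which loads polyunsaturated fatty acids into membrane lipids that can be peroxidised, stood at 200 ± 7.64 CPM with ND-646 and 181 ± 7.94 CPM with vehicle (SD, n = 4 each; log2 fold change 0.15 ± 0.04 SE; edgeR adjusted p = 0.0049). *Acsl3*, which activates monounsaturated fatty acids, rose by 1.26 ± 0.05 and *Cyb5r1*, a reductase, by 1.39 ± 0.06. *Alox5*, a lipoxygenase of myeloid cells, changed by -2.21 ± 0.14. Myeloid markers were also lower in these libraries, and which cells made the *Alox5* transcripts was not tested. Of 18 iron genes 6 rose and 7 fell, with the transferrin receptor *Tfrc* at 101 ± 6.74 CPM with ND-646 and 161 ± 5.89 CPM with vehicle, the ferritin light chain *Ftl1* at -0.38 ± 0.04 and the zinc and iron carrier *Slc39a14* at -0.83 ± 0.05 on the log2 scale. Of 20 genes of selenoprotein synthesis and other selenoproteins, 6 rose and 6 fell. *Sephs2*, which makes the selenium donor, stood at 56.7 ± 1.62 CPM with ND-646 and 84.3 ± 2.62 CPM with vehicle, while *Selenok* and *Selenon* changed by 0.38 ± 0.04 and -0.41 ± 0.05 on the log2 scale (SE).

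**Figure D3:**
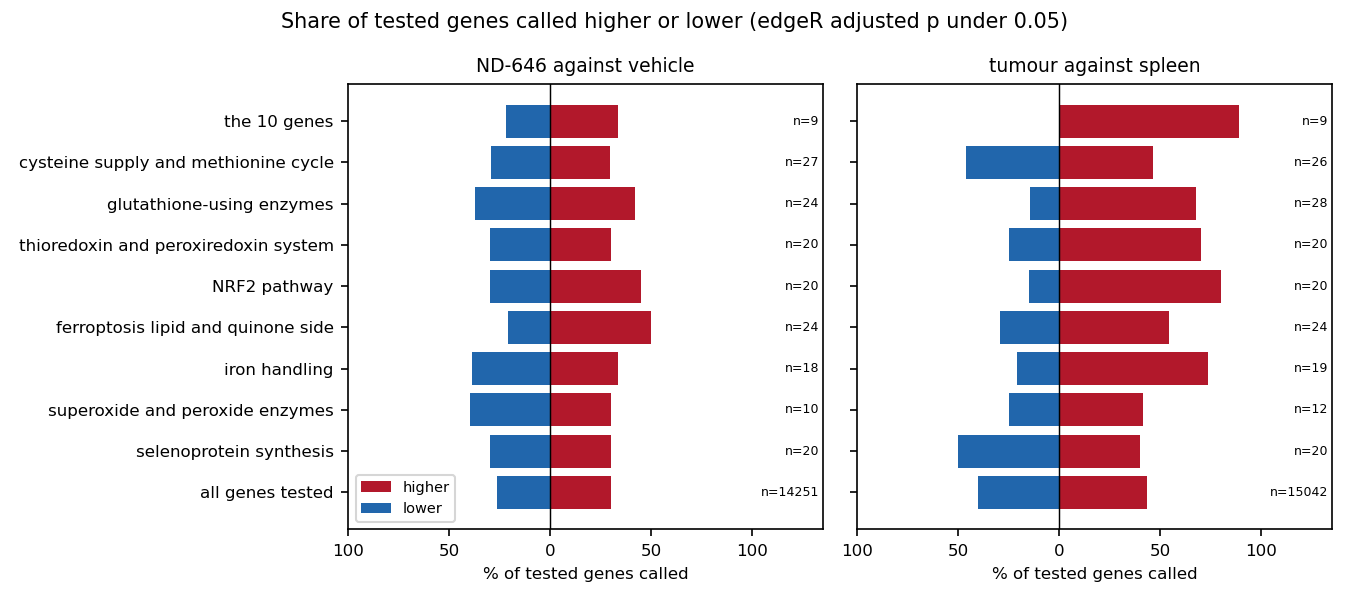
Share of tested genes called higher (red, to the right) or lower (blue, to the left) for the 10 genes, 8 lists of neighbouring pathways and all tested genes, with the number tested at the right of each row. With ND-646 the 10 genes lie near all genes (33.3% and 29.8% higher). In tumour against spleen 88.9% of the 9 tested genes and 43.6% of all genes were higher. The 9 include *Cth* and *Aifm2*, which passed the low-count filter only through the tumour libraries.

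The second comparison asked how the mRNA of CD8+ cells sorted from tumours compared with that of spleen CD8+ cells. Of the 9 tested genes, 8 were higher in tumour libraries and none was lower, and *Gclc* did not pass. The 8 include *Cth* and *Aifm2*, which passed the low-count filter only through the tumour libraries. For these genes the filter itself favoured a call of higher. *Aifm2* was 27.3-fold higher and *Cth*, absent from the spleen counts, at least 69.4-fold. *Gsr*, *Gclm* and *Txnrd1* were 2.61-fold, 2.31-fold and 2.23-fold higher, *Gpx4* 1.88-fold, *Gss* 1.57-fold and *Gpx1* 1.39-fold. Among all 15042 tested genes 43.6% were higher and 40.2% lower, 83.8% in all. Groups did not overlap in 86.2% of all genes (44.6% with tumour higher), and in 8 of these 9. Beside these changes the connective tissue markers rose in 22 of 22 tested cases and the T cell identity genes fell in 17 of 17, and which cells made the transcripts was not tested.

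When libraries were scaled by the CD8 identity genes, 9 of 9 were higher, *Gclc* included at 1.02 on the log2 scale (adjusted p = 3.56e-05). That scaling shifted the median of all genes by 1.009 and put 70.3% of them in the higher group, with 85.9% of all calls higher against 52% under TMM. The shift is close to the value for *Gclc*, which therefore stood level with the median gene under either scaling. Under it *Aifm2*, *Gsr* and *Gpx1* had log2 fold changes of 5.77, 2.40 and 1.49, or 4.76, 1.39 and 0.48 less the shift. Since this scaling moves the typical gene upward by that shift, it is no check on the direction of genes already higher in tumour.

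*Cth* was at 3.26, 3.95 and 3.06 CPM in tumour replicates 1 to 3 (64 to 77 counts) and had no count in any spleen library. The floor, 3 counts over the spleen group, was 0.0493 CPM, and the edgeR adjusted p was 3.54e-06. *Cbs* was at 0.247 to 0.287 CPM in tumour and 0.241 to 0.349 CPM in spleen libraries, 5 to 7 counts each, and the groups overlapped.

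The subunits of glutamate-cysteine ligase parted. *Gclc* was at 52.5, 59.1 and 53.3 CPM in tumour replicates 1 to 3, against 54.2, 55.2 and 56.1 CPM in spleen replicates 1 to 3, with overlap and a log2 fold change of -0.00 ± 0.06 (SE; edgeR adjusted p = 0.943). *Gclm* was at 46.9, 52.6 and 52.7 CPM in tumour replicates 1 to 3, against 19.8, 23.5 and 22.7 CPM in spleen replicates 1 to 3, well apart (1.21 ± 0.08, adjusted p = 5.73e-07). The Gclc to Gclm count ratio was 1.12, 1.12 and 1.01 in tumour and 2.73, 2.35 and 2.47 in spleen replicates 1 to 3. These do not overlap, and the two-sided exact permutation p was 0.1, the smallest that 3 against 3 allows (0.133 adjusted over 4 ratio tests). *Gss*, the second step, was at 19.6 ± 1.72 CPM in tumour and 12.5 ± 1.17 CPM in spleen libraries (SD, n = 3 each; log2 fold change 0.65 ± 0.11 SE; edgeR adjusted p = 0.000283).

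Both reductases rose. *Gsr* was at 73.5, 77.4 and 80.2 CPM in tumour replicates 1 to 3, against 28.1, 30.3 and 30.2 CPM in spleen replicates 1 to 3 (log2 fold change 1.38 ± 0.06 SE; edgeR adjusted p = 2.65e-08). *Txnrd1* was at 207, 225 and 210 CPM in tumour replicates 1 to 3, against 98.5, 95.4 and 94 CPM in spleen replicates 1 to 3 (1.16 ± 0.05, adjusted p = 3.24e-08). Both sets of groups were far apart.

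*Gpx4* stood at 160, 167 and 159 CPM in tumour replicates 1 to 3, against 86.7, 89.1 and 82.9 CPM in spleen replicates 1 to 3 (log2 fold change 0.91 ± 0.05 SE; edgeR adjusted p = 1.09e-07). *Gpx1* stood at 155, 175 and 168 CPM in tumour replicates 1 to 3, against 118, 126 and 116 CPM in spleen replicates 1 to 3 (0.47 ± 0.06, adjusted p = 4.45e-05). Both peroxidases were higher in every tumour library than in any spleen library. The Gpx4 to Gpx1 count ratio was 0.977 ± 0.0468 in tumour and 0.719 ± 0.0122 in spleen (SD, n = 3 each; p = 0.1 by exact permutation, again the smallest possible, 0.133 adjusted over 4 ratio tests). *Gpx4-ps2* held 4.28 to 4.83% as many counts as *Gpx4* in tumour and 3.57 to 5.46% in spleen libraries.

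*Aifm2* was at 11.2, 12.9 and 13.7 CPM in tumour replicates 1 to 3 (226 to 286 counts), against 0.433, 0.549 and 0.399 CPM in spleen replicates 1 to 3 (8 to 11 counts). The groups lay far apart, with a log2 fold change of 4.75 ± 0.20 (SE; edgeR adjusted p = 2.2e-08). In the cultures, scaled apart, it stood at 17.8 to 24.3 CPM, above both groups of sorted cells. *Gclc* showed the reverse, at 41 to 46.3 CPM in cultures and 52.5 to 59.1 CPM in sorted cells, and no test was made across the experiments.

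**Figure D4:**
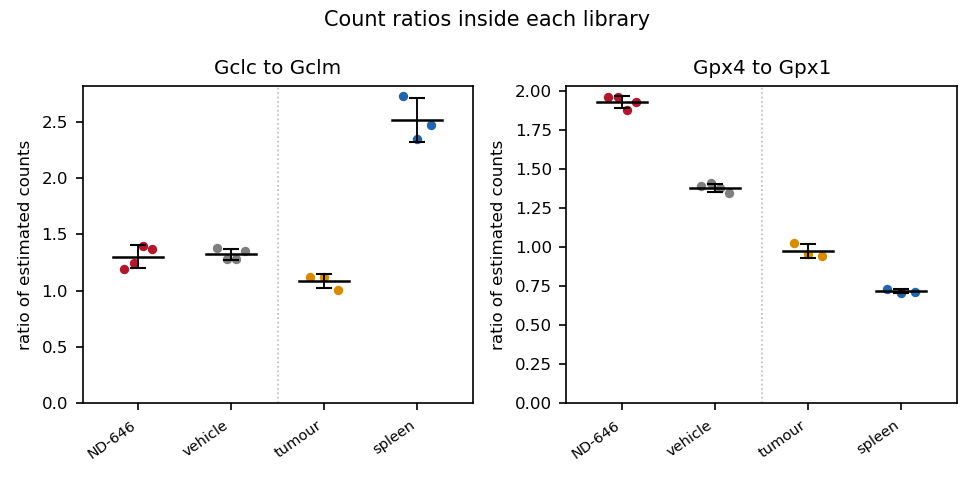
Ratio of estimated counts of *Gclc* to *Gclm* (left) and *Gpx4* to *Gpx1* (right) in each library (points), with group mean (line) and SD (bars). The tumour libraries lie at 1.01 to 1.12 and the spleen libraries at 2.35 to 2.73 in the left panel, and the ND-646 libraries at 1.88 to 1.96 and the vehicle libraries at 1.35 to 1.41 in the right panel.

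Of the 9 genes tested in both comparisons, 5 were called in both, against 49.3% of all 13261 genes tested in both, so the share is near that background. *Cth*, *Gsr* and *Gpx4* were higher in both, while *Gpx1* and *Aifm2* were lower with ND-646 and higher in tumour. *Gclm*, *Gss* and *Txnrd1* passed in the tumour comparison alone, and the difference between the comparisons was not tested.

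Among genes of cysteine supply, *Slc7a11* was at 0.839, 1.18 and 1.58 CPM in tumour replicates 1 to 3 and at 0 in spleen, at least 24.3-fold higher against 3 counts over the spleen group (edgeR adjusted p = 9.05e-05). Like *Chac1*, it passed the low-count filter only through the tumour libraries. *Slc1a4* was at 45.7 ± 5.87 CPM in tumour and 1.64 ± 0.383 CPM in spleen, and *Slc3a2*, the partner chain of *Slc7a11*, at 253 ± 13.4 and 105 ± 1.58 CPM (SD, n = 3 each). *Chac1* was at 4.05, 5.38 and 5.83 CPM in tumour replicates 1 to 3, against 0.193, 0 and 0 CPM in spleen replicates 1 to 3, so its fold rests on 4 counts of 1 spleen library, and a log2 fold change of 6.15 turned to 9.68 when spleen replicate 1 was left out. In the list of cysteine supply and methionine cycle 12 of 26 genes rose and 12 fell (46.2% each way). Scaling by CD8 identity genes turned this to 20 and 3 (76.9% higher). Among all tested genes 43.6% were higher and 40.2% lower. Under that scaling 70.3% were higher, and 1730 of 15042 were lower. These shares are the background for this and the list counts below, and under either scaling this list is near them. *Ahcy*, which makes homocysteine, rose by 1.09 ± 0.04 on the log2 scale, whereas *Ggt1* and *Ggt5*, which cleave extracellular glutathione and were picked after their values were seen, changed by -3.67 and -5.27, and *Ggt7* and *Ggct*, of the same route and picked likewise, by -1.03 and -0.87.

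To see which sequence elements lie at these genes, promoter windows of 300 bases (250 before and 50 after the start, RefSeq, GRCm38.p6) were searched on both strands for the core of the antioxidant response element bound by NRF2, TGACNNNGC, and for the C/EBP-ATF element, TGATGNAA. A window was at hand for 7 of the 10 genes (*Cbs*, *Gclm*, *Gss*, *Gpx1*, *Gpx4*, *Txnrd1* and *Aifm2*). The antioxidant core was found for *Gclm* and for 1 of 3 windows of *Txnrd1*, so for 2 of these 7 genes. It was found for 14% of all 27025 genes with a window (12.4% of all 32851 windows). No window of the 7 genes held the C/EBP-ATF element, which was found for 4.51% of all genes with a window (3.97% of all windows). Among neighbouring genes, *Slc7a11* held 2 copies of the C/EBP-ATF element and *Chac1* 1, and *Nfe2l2* held the antioxidant core. Those 5 windows held a match and are shown 5′ to 3′ on the gene's strand, with the matches in capitals. Their genes were higher in tumour libraries, as were 43.6% of all tested genes. The windows of *Cbs*, *Gss*, *Gpx1*, *Gpx4*, *Aifm2*, *Acsl4*, *Tfrc* and *Keap1* held neither element. Of these genes, *Gss*, *Gpx1*, *Gpx4*, *Aifm2*, *Acsl4* and *Tfrc* were also higher in tumour, *Keap1* was lower and *Cbs* was not tested. A link between element and level was not tested. *Gclm* and *Txnrd1* are on the plus strand at chr3:122245307-122245606 and chr10:82858956-82859255, *Nfe2l2* on the minus strand at chr2:75704614-75704913, *Slc7a11* on the minus strand at chr3:50443564-50443863 and *Chac1* on the plus strand at chr2:119350992-119351291. A match is only a run of letters and says nothing of binding.
Gclm: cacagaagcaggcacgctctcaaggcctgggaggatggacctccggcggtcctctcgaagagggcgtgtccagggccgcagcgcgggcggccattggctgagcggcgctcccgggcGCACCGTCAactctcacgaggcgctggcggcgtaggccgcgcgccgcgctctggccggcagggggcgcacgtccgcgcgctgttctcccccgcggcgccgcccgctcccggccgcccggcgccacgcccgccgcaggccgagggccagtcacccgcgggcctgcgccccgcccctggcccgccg
Txnrd1: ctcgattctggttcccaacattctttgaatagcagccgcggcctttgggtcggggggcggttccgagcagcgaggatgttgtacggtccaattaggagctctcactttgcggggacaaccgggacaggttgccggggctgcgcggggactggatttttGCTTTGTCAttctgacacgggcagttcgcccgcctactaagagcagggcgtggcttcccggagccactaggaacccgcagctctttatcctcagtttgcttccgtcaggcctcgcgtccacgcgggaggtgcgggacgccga
Nfe2l2: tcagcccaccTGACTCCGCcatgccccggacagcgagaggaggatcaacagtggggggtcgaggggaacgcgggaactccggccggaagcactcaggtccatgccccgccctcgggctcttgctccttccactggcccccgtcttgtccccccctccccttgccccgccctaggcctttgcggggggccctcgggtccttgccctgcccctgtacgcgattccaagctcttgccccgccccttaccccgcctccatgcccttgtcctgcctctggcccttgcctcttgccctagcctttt
Slc7a11: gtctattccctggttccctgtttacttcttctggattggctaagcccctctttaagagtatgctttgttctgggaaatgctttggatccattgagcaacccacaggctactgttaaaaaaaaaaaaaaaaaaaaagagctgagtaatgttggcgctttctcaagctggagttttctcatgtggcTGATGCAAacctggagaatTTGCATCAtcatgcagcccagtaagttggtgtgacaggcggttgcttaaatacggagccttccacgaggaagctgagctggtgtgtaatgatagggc
Chac1: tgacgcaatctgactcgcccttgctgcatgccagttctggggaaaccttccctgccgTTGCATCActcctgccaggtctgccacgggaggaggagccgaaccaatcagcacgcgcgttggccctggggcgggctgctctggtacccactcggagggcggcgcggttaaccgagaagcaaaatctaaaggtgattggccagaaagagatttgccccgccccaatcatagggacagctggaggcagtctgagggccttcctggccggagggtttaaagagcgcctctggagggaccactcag

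In capitals *Gclm* carries GCACCGTCA and *Txnrd1* GCTTTGTCA, both on the opposite strand, and *Nfe2l2* carries TGACTCCGC. The transcripts of *Gclm* and *Txnrd1* were 2.31-fold and 2.23-fold higher in tumour libraries and did not pass with ND-646. *Slc7a11* and *Chac1* rose in both comparisons, *Chac1* with ND-646 only narrowly, as given above.

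**Figure D5:**
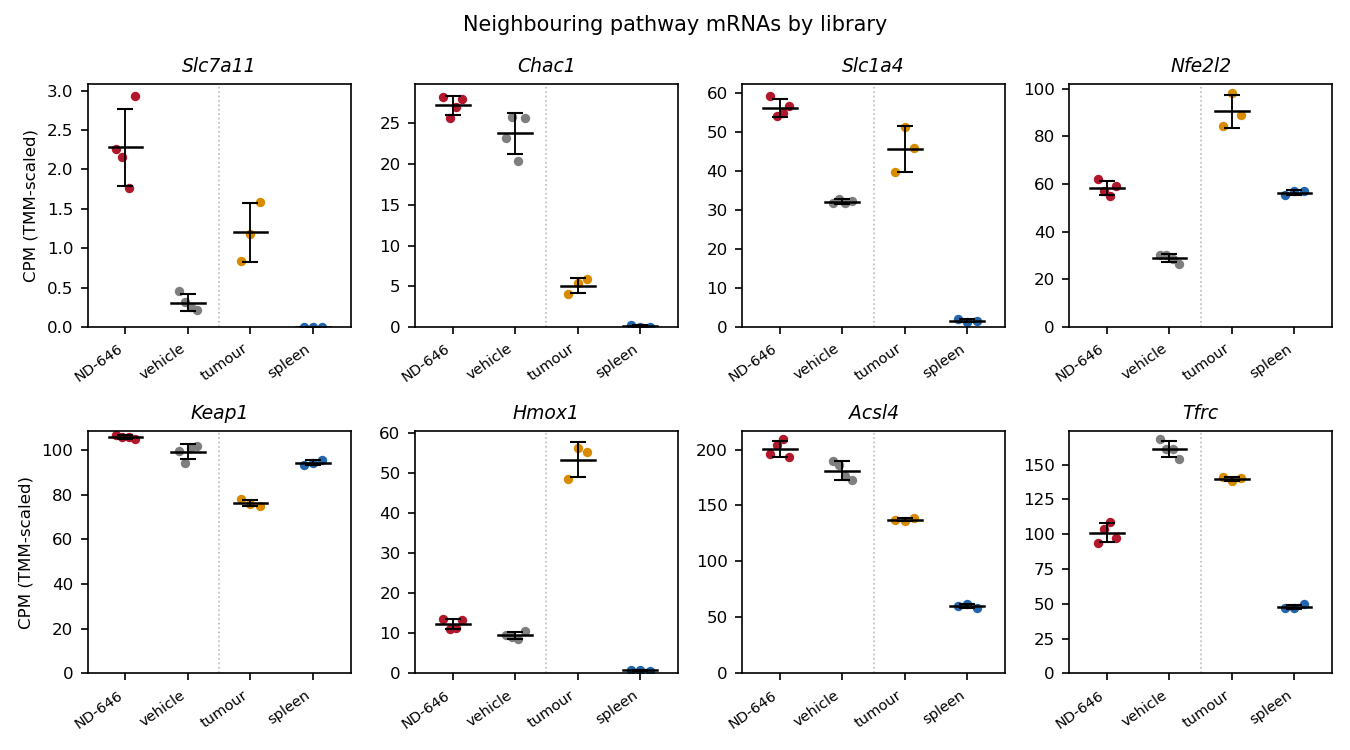
TMM-scaled CPM per library (points) with group mean (line) and SD (bars) for 8 genes of neighbouring pathways. The dotted line divides the 2 experiments, which were scaled apart. *Nfe2l2* is at 54.8 to 61.9 CPM in ND-646 and 26.5 to 30.3 CPM in vehicle libraries, and *Hmox1* averages 53.3 CPM in tumour and 0.755 CPM in spleen libraries.

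*Nfe2l2* was at 90.6 ± 6.99 CPM in tumour and 56.4 ± 1.02 CPM in spleen libraries (SD, n = 3 each; log2 fold change 0.68 ± 0.06 SE; edgeR adjusted p = 4.68e-06). *Keap1* was at 76.4 ± 1.44 and 94.4 ± 1.24 CPM in those groups, a log2 change of -0.31 ± 0.04 that turned to 0.71 when scaled by CD8 identity genes. Of 20 NRF2 pathway genes 16 rose and 3 fell (80% against 43.6% of all genes higher). When scaled by CD8 identity genes 18 rose and 2 fell (90% against 70.3% of all genes higher). *Hmox1*, haem oxygenase, rose by 6.13 ± 0.13 and the small Maf gene *Maff* by 5.40 ± 0.16, while *Ephx1* changed by -2.23 ± 0.05 on the log2 scale (SE). *Nqo1*, a quinone reductase, and *Srxn1*, sulfiredoxin, picked after their values were seen, rose to 16.3 ± 2.1 and 74.4 ± 16.5 CPM in tumour, against 0.328 ± 0.111 and 0.275 ± 0.32 CPM in spleen (SD, n = 3 each).

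Of 20 thioredoxin and peroxiredoxin genes 14 rose and 5 fell (70% and 25%, against 43.6% and 40.2% of all genes). Scaling by CD8 identity genes gave 16 and 2 (80% higher, against 70.3% of all genes). Thioredoxin *Txn1*, the substrate of *Txnrd1*, was at 222 ± 5.51 CPM in tumour and 51.4 ± 5.55 CPM in spleen. *Prdx4* was at 92.6 ± 13.4 and 4.28 ± 0.906 CPM in those groups (SD, n = 3 each). *Prdx1* rose by 1.27 ± 0.05 on the log2 scale. Of 28 glutathione-using enzymes 19 rose and 4 fell (67.9% and 14.3%), or 25 and 3 under that scaling (89.3% higher). Among them were the transferases *Gstm1* (4.96 ± 0.14) and *Gsto1* (2.98 ± 0.08) and *Esd*, which cleaves S-formylglutathione (1.59 ± 0.05). The sequences of *Gstm* paralogs are similar, and how reads were split between them is uncertain. Of 12 superoxide and peroxide enzymes 5 rose and 3 fell (41.7% and 25%), a share of higher genes near the 43.6% of all genes. When scaled by CD8 identity genes 12 rose and 0 fell, where 70.3% of all genes were higher. *Sod1* rose by 0.91 ± 0.05, the prion protein gene *Prnp* by 6.20 ± 0.18, and the secreted dismutase *Sod3*, at 0 in spleen, stood at 6.05 ± 1 CPM in tumour, at least 123-fold higher.

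Of 19 iron genes 14 rose and 4 fell (73.7% and 21.1%, against 43.6% and 40.2% of all genes). When scaled by CD8 identity genes 18 rose and 0 fell (94.7% higher, against 70.3% of all genes). *Tfrc*, which imports iron, was at 140 ± 1.63 CPM in tumour and 48 ± 1.49 CPM in spleen, the ferritin heavy chain *Fth1* at 861 ± 24.3 and 356 ± 2.3 CPM, and *Sat1*, a polyamine acetyltransferase, at 209 ± 15.8 and 65.8 ± 2.9 CPM (SD, n = 3 each). On the lipid and quinone side 13 of 24 genes rose and 7 fell (54.2% and 29.2%). Scaling by CD8 identity genes gave 21 and 1 (87.5% higher). *Acsl4* was at 137 ± 1.94 CPM in tumour and 60 ± 1.8 CPM in spleen (log2 fold change 1.19 ± 0.05 SE; edgeR adjusted p = 1.6e-08). *Coq10b*, a coenzyme Q binding protein, rose by 2.87 ± 0.09 on the log2 scale (SE).

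Beside the selenoprotein genes *Gpx1*, *Gpx4* and *Txnrd1*, which rose, 8 of 20 genes of selenoprotein synthesis and other selenoproteins rose and 10 fell (40% higher, against 43.6% of all genes). Scaling by CD8 identity genes turned this to 14 and 1 (70% higher, against 70.3% of all genes). Both shares of higher genes are near the background. *Selenop*, a secreted selenium carrier, was at 26.6 ± 1.07 CPM in tumour and 123 ± 4.04 CPM in spleen, and *Selenon* at 69.9 ± 2.36 and 2.59 ± 0.0893 CPM (SD, n = 3 each). *Lrp8*, a receptor that takes up Selenop, rose by 3.00 ± 0.10 on the log2 scale. Other cell markers differed in the same libraries. B cell markers summed to 57.8 to 73.5 CPM in tumour and 802 to 832 CPM in spleen, macrophage, monocyte and neutrophil markers to 43.9 to 65.7 and 16.2 to 19.9 CPM, NK and gamma delta T cell markers to 56.2 to 88.1 and 15.3 to 18.8 CPM, and endothelial markers to 66.4 to 78.3 and 161 to 172 CPM. The endothelial sum was mostly *Pecam1* in spleen (27 ± 1.76 CPM in tumour and 166 ± 5.46 CPM in spleen; SD, n = 3 each), and 8 of 9 tested endothelial markers were higher in tumour. Their part in the gene levels was not tested.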

How the data were processed

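Estimated counts by gene symbol were deposited by the authors in 2 tables, 1 for each experiment, with no normalization, as the differing column totals show. Values that were not whole made up 9.16% and 9.15% of the tables (tolerance 1e-06). STAR, Salmon and DESeq2 are listed in the submitters' processing notes, with neither version nor role. Build, annotation and strand setting were not given in the sources used here. GENCODE M21 marks *Gclm*, *Gpx1* and *Txnrd1* as overlapping other loci, so their counts are less certain. Libraries were grouped by title, and all columns were matched to a sample.

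Counts were rounded and each table was fitted apart in edgeR 4.0.16 (R 4.3.3) by its quasi-likelihood test (robust option), after TMM scaling and filterByExpr, with p-values adjusted by Benjamini-Hochberg over all tested genes at 0.05. Standard errors come from the F statistic. CPM are deposited estimated counts per 1e+06 TMM-scaled counts. Floors of 3 counts cover counting error only. The fit was checked on simulated data. Ratios were compared by exact permutation over libraries.

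The genes and lists were chosen with earlier results of these data known. Text names the 10 genes, *Slc7a11*, *Chac1*, *Nfe2l2*, *Keap1*, *Acsl4*, *Tfrc*, the 3 called genes with the smallest p-value and at least 5 CPM of each of 8 pathway lists, and the most abundant marker of each cell type list; 1 gene so chosen is not reported here. Alternatives used DESeq2 1.42.0, limma-voom (limma 3.58.1), other filters, RLE or CD8 identity scaling, the replicate block and leaving out each library.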

Additional observations from a re-analysis of the deposited data

Results flagged for a closer look

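In vehicle libraries *Gpx1* had 1 library at 137 CPM, far above the other 3, which lay at 130 to 131 CPM (Dixon's test for groups of 4). *Txnrd1* had 1 vehicle library at 104 CPM, below the other 3 at 113 CPM. Of 94 groups of 4 tested in this way these were the 2 that stood out, and chance gives about 5%. The calls of both genes were the same with those libraries left out.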

How the results depend on the processing

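The counts of called genes stayed within 1.5 times under every alternative run, and so did the counts among the 10 genes (4 to 5 without 1 library with ND-646, and 8 in tumour without any 1 library). The replicate block gave 7864 and 12492 called genes, with 5 and 8 of the 10, and changed no call among these. Same-numbered libraries did not deviate together (correlations -0.14 to 0.06 and -0.03 to -0.02), so the numbers were not taken as pairs. With pairs, the Gpx4 to Gpx1 ratio difference of 0.48 (log2) had an exact sign-flip p = 0.125, the smallest that 4 pairs allow. The Gclc to Gclm ratio difference with ND-646 changed sign, from -0.06 to 0.02 without 1 library. In tumour, *Gclc* changed sign with no filter (0.02), RLE factors (0.06), DESeq2 (0.06) and CD8 identity scaling (1.02), and ran from -0.03 to 0.07 without 1 library. That last scaling also reversed *Keap1* (0.71) and, among markers, *Apoe* (0.61) and *Cd8a* (0.31). Of 43 named genes tested in each comparison, 3 with ND-646 (*Keap1*, *Chac1*, *Gsr*) and 4 in tumour changed call or sign in at least 1 alternative. Depth limits *Cbs* in all groups and *Cth* and *Slc7a11* in spleen.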
